A study of Arabidopsis thaliana with 24 samples.

Results

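The response of EXPA1 OE shoots to dexamethasone (Dex) was set against the response of WT shoots to the same treatment, as an interaction of genotype and Dex after 3 h. The interaction of a gene is its log2 fold change with Dex in the EXPA1 OE line minus its log2 fold change with Dex in WT. A positive value thus means that the gene rose more, or fell less, with Dex in the line. It used 16 of the 24 libraries of the study, 4 biological replicates in each of 4 groups, and 21090 of 33602 genes had enough counts to be tested. All groups were shoots of Arabidopsis thaliana seedlings (Col-0) at 7 days, grown in vitro in long days of 16 h light. The groups were the Dex-inducible pRPS5A>GR>EXPA1 line 8-4 after 3 h of Dex and without Dex, and WT after 3 h of Dex and without Dex. The line is 1 transgenic line, with EXPA1 placed under the RPS5A promoter through the pOp6/LhGR system, and WT carries no transgene. The sources used here do not give a mock treatment of the groups without Dex or the hour of harvest. An effect of Dex thus cannot be told apart from one of handling or of the hour. A Dex effect below is the difference between the groups with and without Dex. No line with the Dex-activated factor but without added EXPA1 is among the groups, so the effects of that factor and of EXPA1 cannot be told apart.

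EXPA1 encodes an α-expansin, a secreted protein that loosens cell walls (CWs), and Dex is a glucocorticoid that plants do not make. In the pOp6/LhGR system Dex lets a synthetic transcription factor enter the nucleus and switch on the gene of interest. A secreted protein is folded in the endoplasmic reticulum (ER), where chaperones, lectins and disulfide isomerases act on it before it leaves in COPII-coated vesicles. When folding falls behind, the unfolded protein response (UPR) raises the genes of these helpers: in plants the membrane kinase IRE1 splices the bZIP60 mRNA, and the membrane-bound factor bZIP28 moves to the Golgi and is cut there by proteases.

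EXPA1 (AT1G69530) was examined first, since it checks the labels. It stood at 18041, 18724, 17819 and 17616 CPM in the EXPA1 OE line after Dex and 377, 422, 432 and 479.6 CPM without Dex, against 362, 388, 326 and 401 CPM in WT after Dex and 199.6, 219, 592 and 438 CPM without Dex, with CPM as counts scaled by library size. The lowest library of the line after Dex was far above every library of the other groups, which overlapped. The interaction was 5.37 (standard error 0.37, adjusted p = 1.99e-08), where tests are edgeR's quasi-likelihood test and p-values were adjusted over the 21090 genes by Benjamini and Hochberg. Reads of the transgene and of the native gene cannot be told apart and are counted together. Total counts per library ran from 34233834 to 82187324. In replicate 2 of the line after Dex the top 10 genes held 21.5% of all counts and plastid rRNA 6.402%, against at most 12.9% and 1.995% in the other libraries. The WT libraries without Dex parted into replicates 1 and 2, at -24.1 and -21.0 on the third principal component (12.3% of the variance), and replicates 3 and 4, at -50.8 and -54.2. Some of the counts and genes that rest on this parting are given below also with WT without Dex reduced to replicates 1 and 2. Nuclear photosynthesis genes, which mark the shoot, had a mean log2 CPM of 11.5 to 11.7 in the line after Dex and 12.04 to 12.2 without Dex, against 11.98 to 12.1 and 11.8 to 12.4 in WT.

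A gene was called where its adjusted p was under 0.05 and its log2 difference at least 1 in size. The interaction was called higher for 1511 genes, 7.16% of those tested, and lower for 1055 genes (5%), together 12.2%, while its median over all tested genes was -0.02. Of these, 667 of the higher and 148 of the lower differed over 4-fold. With WT without Dex reduced to replicates 1 and 2 the counts were 1388 and 1146, of which 1119 and 836 were among the first. The Dex effect itself was called for 1942 rises and 1990 falls in the EXPA1 OE line (9.21% and 9.44%, together 18.6%) and for 789 rises and 1273 falls in WT (3.74% and 6.04%, together 9.78%). The interaction and the Dex effects use the same libraries, so the next counts only describe what each interaction was made of. Among the 1511 higher interactions, 873 were rises in the line at genes not called in WT, 238 were falls in WT at genes not called in the line, 111 were rises and 34 falls in both, 58 rose in the line and fell in WT, and 197 passed neither call. Among the 1055 lower ones, 622 were falls in the line alone, 99 were rises in WT alone, 80 were falls and 20 rises in both, 10 fell in the line and rose in WT, and 224 passed neither call. A gene called in one genotype alone is here one whose difference between genotypes was itself tested.

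**Figure D1:**
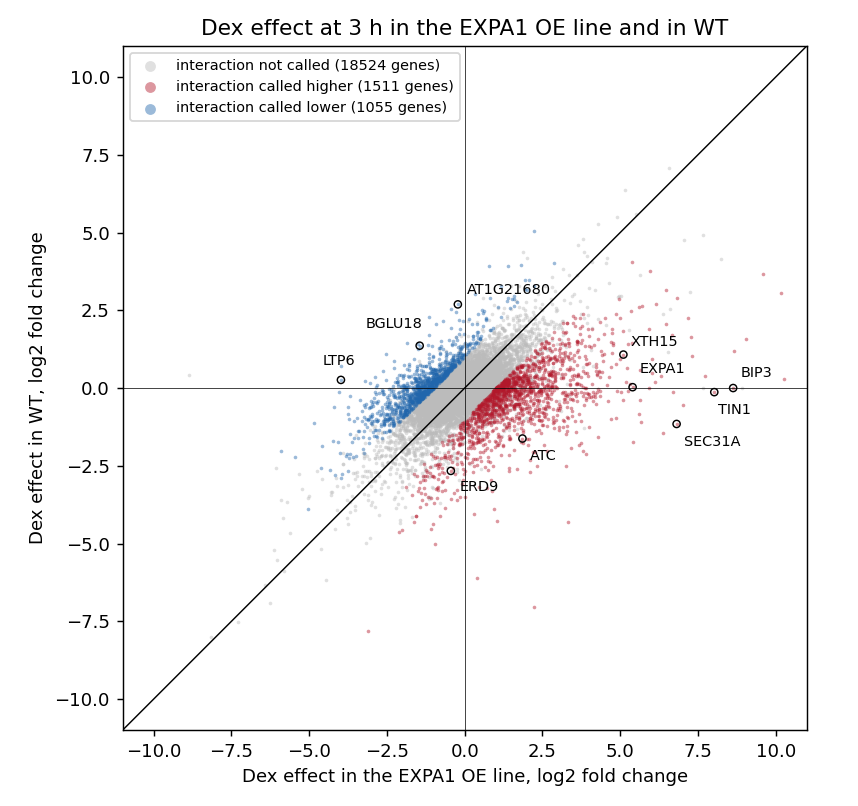
Log2 fold change with Dex at 3 h, by line (horizontal axis) and by WT (vertical axis), for each of 21090 tested genes, where the black diagonal marks equal effects. The 1511 genes with a higher interaction lie right of and below the diagonal, with BIP3, TIN1 and SEC31A at the far right, and the 1055 genes with a lower one lie left of and above it.

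ER folding was the gene group with the largest shift among the lists on secretion. Of 29 tested genes, the interaction was called higher for 22 and lower for 1, with a median of 2.54, against 7.16% and 5% of all tested genes and a median of -0.02. The same shares of all tested genes stand beside the interaction counts of every list below. The Dex effect had a median of 2.64 in the line, against -0.04 in WT. No member was called in WT by edgeR's test, where 8 were higher and 8 lower with Dex at an unadjusted p under 0.05. The whole list averaged 7.50 to 7.70 log2 CPM in the line after Dex and 4.79 to 4.87 without Dex, against 4.96 to 5.15 in WT after Dex and 4.95 to 5.10 without Dex, so the ranges of the 3 groups other than the induced line lay close together.

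**Figure D2:**
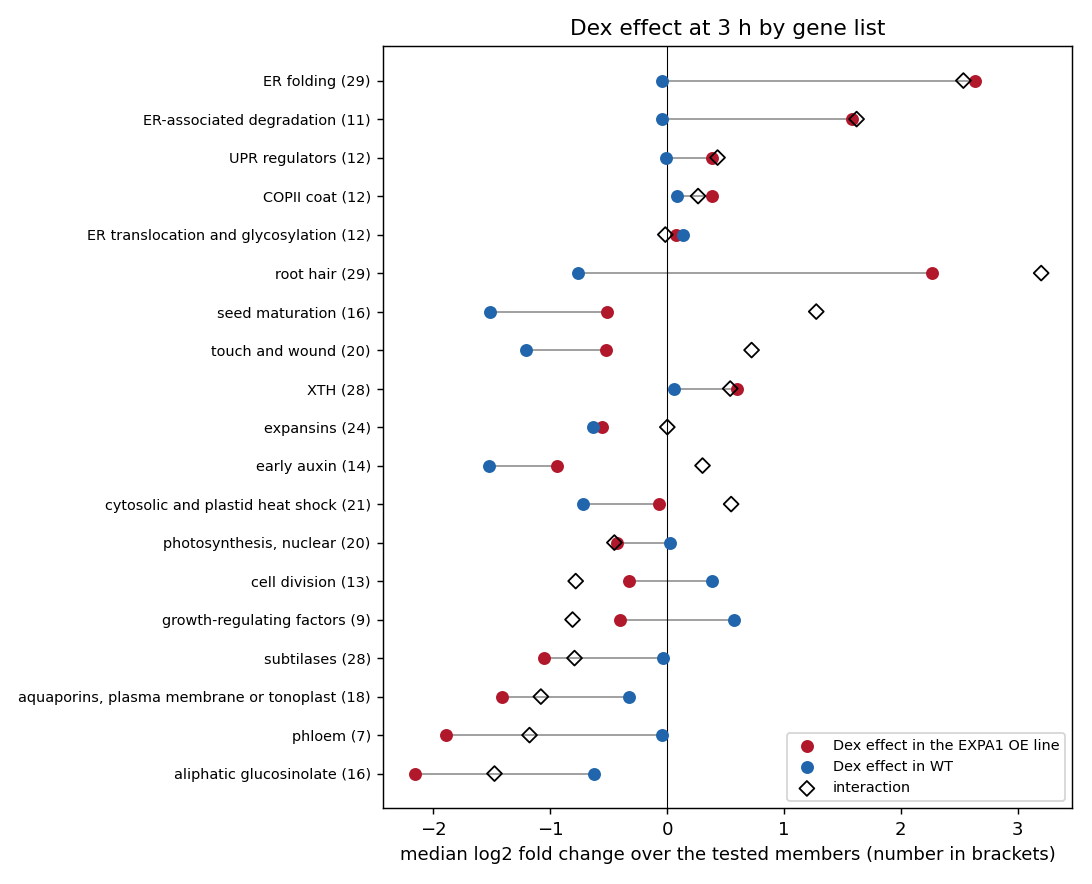
Median log2 fold change over the tested members of 19 gene lists (number of members in brackets): Dex effect in the EXPA1 OE line (red), Dex effect in WT (blue) and interaction (open diamonds). For the ER lists the interaction sits near the value of the line and WT near 0, whereas for root hair genes WT lies at -0.76 and the line at 2.27.

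BIP3 (AT1G09080, chromosome 1, 2929217 to 2931841 of TAIR10), an ER chaperone of the HSP70 family, stood at 532, 603, 448 and 396 CPM in the EXPA1 OE line after Dex and 1.57, 1.04, 0.984 and 1.27 CPM without Dex, against 0.720, 1.21, 1.79 and 0.837 CPM in WT after Dex and 0.742, 1.33, 1.1 and 1.41 CPM without Dex. The induced line was far above every other group, and the other 3 groups overlapped, none of their libraries exceeding 1.79 CPM. Its interaction was 8.63 (standard error 0.36, adjusted p = 6.98e-11), with a Dex effect of 0.00 ± 0.28 in WT (log2 fold change ± standard error, as for all values with ± below). TIN1, a gene known for its induction by tunicamycin, which blocks N-glycosylation, had 258, 271, 201 and 189 CPM in the EXPA1 OE line after Dex and 0.808, 1.102, 1.14 and 0.582 CPM without Dex, against 1.67, 2.75, 1.60 and 1.201 CPM in WT after Dex and 1.39, 1.18, 3.45 and 1.79 CPM without Dex. Here too the induced line was apart from the rest, and WT lay slightly above the line without Dex. The interaction of TIN1 was 8.16 (standard error 0.45, adjusted p = 1.38e-09).

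ERDJ3A, a J-domain partner of the BIP chaperones, was measured at 259.7, 272, 249 and 223 CPM in the EXPA1 OE line after Dex and 2.72, 2.23, 1.97 and 2.63 CPM without Dex, against 3.95, 4.50, 3.52 and 3.51 CPM in WT after Dex and 3.31, 3.60, 5.76 and 4.12 CPM without Dex. Without Dex the line lay below WT (all 4 libraries of the line under the lowest of WT), and after Dex far above it. The interaction was 6.82 (standard error 0.22, adjusted p = 3.23e-12). CNX1, calnexin, a membrane lectin that holds glycoproteins during folding, was abundant in every library, at 1815, 1868, 1697 and 1624 CPM in the EXPA1 OE line after Dex and 153, 144, 139 and 135 CPM without Dex, against 169.8, 188, 161 and 164 CPM in WT after Dex and 210.1, 205, 179 and 170.2 CPM without Dex. It rose in the line without overlap, and in WT the libraries after Dex spanned 161 to 188 CPM, overlapping those without Dex. The interaction of CNX1 was 3.78 (standard error 0.11, adjusted p = 8.18e-13).

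The other members are given by role. Among the HSP70 chaperones, BIP2 and BIP1 had interactions of 4.14 ± 0.14 and 3.77 ± 0.12, and AT4G16660, a further HSP70 of the list, 3.28 ± 0.11. BIP1 and BIP2 are close copies, so reads may be split between them. The HSP90 of the ER, SHD, had 2.54 ± 0.10. The J-domain genes ERDJ3B and P58IPK had 2.89 ± 0.10 and 2.17 ± 0.09, and SDF2, a partner of ERDJ3B, had 2.45 ± 0.09. Oxidative folding was represented by ERO1 (4.40 ± 0.16), which supplies oxidizing power, and by protein disulfide isomerases from PDIL2-2 (4.11 ± 0.17) and PDIL1-2 (3.34 ± 0.14) to PDIL2-1 (1.76 ± 0.11). The nucleotide sugar transporters UTR1 and UTR3 had 4.35 ± 0.11 and 4.18 ± 0.10. The family members did not move as one: ERO2 was at -0.07 ± 0.11 beside ERO1, calreticulin CRT1b at 1.91 ± 0.11 beside CRT1 (0.82 ± 0.11) and CRT3 (-0.94 ± 0.08), and PDIL1-4, PDIL5-1 and PDIL5-2 at -0.86 ± 0.07, -0.31 ± 0.09 and -1.15 ± 0.09. Of these, PDIL5-2 was the 1 member called lower. UGGT, which marks unfolded glycoproteins for another round on calnexin, was at 0.82 ± 0.07, under the fold threshold.

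**Figure D3:**
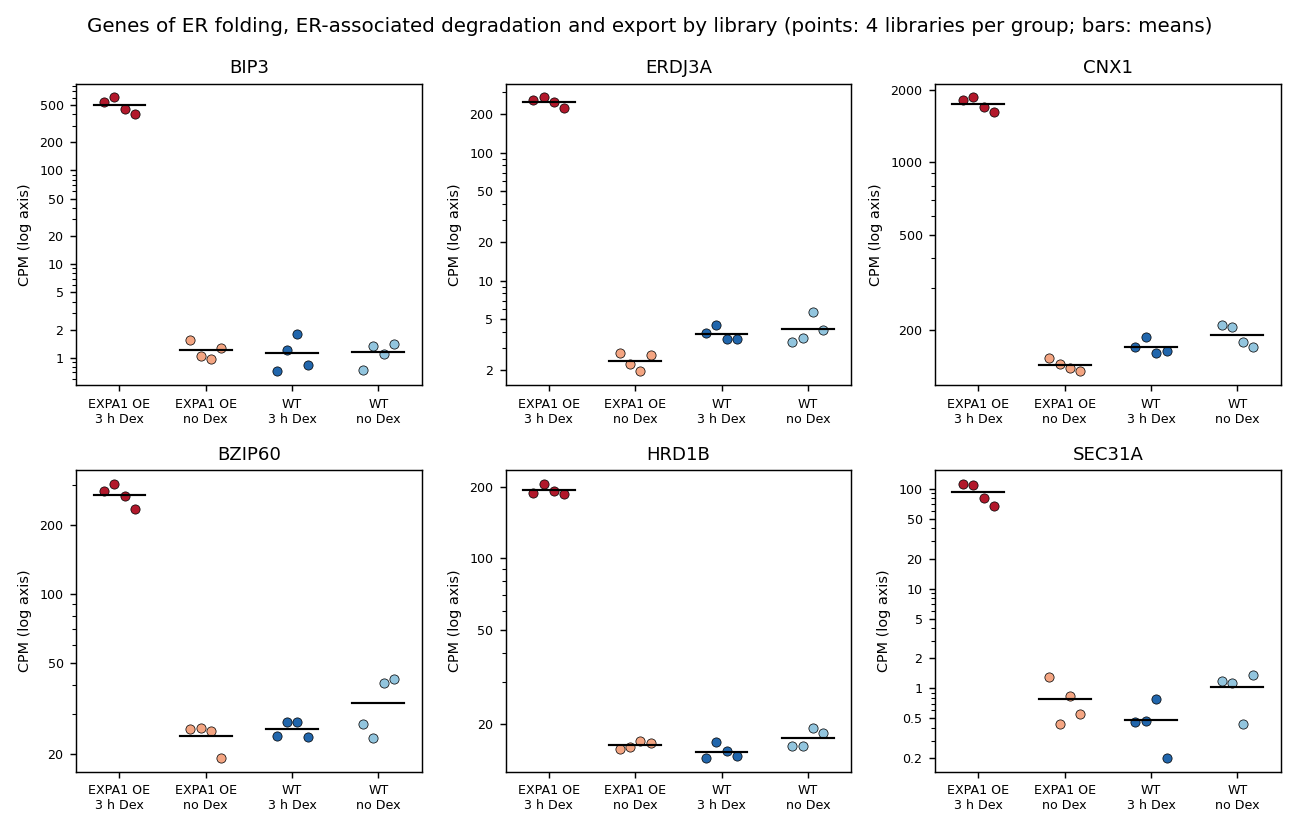
CPM (log axis) of 6 genes in each of 16 libraries, by group, with bars at the group means. In every panel the 4 libraries of the EXPA1 OE line after Dex lie above all other libraries, as for BIP3 with at least 396 CPM against at most 1.79 CPM.

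UPR regulators were called in part. The interaction was called higher for 5 of 12 tested genes and lower for 0 (median 0.43). BZIP60, the factor whose mRNA IRE1 splices, stood at 281, 301, 268 and 234 CPM in the EXPA1 OE line after Dex and 25.7, 25.99, 25.3 and 19.2 CPM without Dex, against 24.02, 27.6, 27.6 and 23.8 CPM in WT after Dex and 27.0, 23.7, 41.0 and 42.7 CPM without Dex. The induced line overlapped no other group, and WT was lower after Dex than replicates 3 and 4 of WT without Dex, overlapping replicates 1 and 2. The interaction was 3.88 (standard error 0.23, adjusted p = 4.34e-09). NAC103, a transcription factor that acts downstream of bZIP60, had 50.3, 44.8, 40.0 and 29.6 CPM in the EXPA1 OE line after Dex and 2.83, 1.77, 2.40 and 1.95 CPM without Dex, against 2.33, 2.69, 1.47 and 1.80 CPM in WT after Dex and 2.12, 2.51, 2.11 and 2.62 CPM without Dex. Its other 3 groups overlapped between 1.47 and 2.83 CPM, and the interaction was 4.38 (standard error 0.28, adjusted p = 8.83e-09). NAC062 and NAC089, membrane-tethered factors, were at 3.32 ± 0.36 and 2.76 ± 0.18, and BI-1, an ER protein that restrains cell death, at 2.496 ± 0.13. Not called were the kinase genes IRE1A (-0.37 ± 0.17) and IRE1B (-0.10 ± 0.08), the factors BZIP28 (0.64 ± 0.13) and BZIP17 (0.22 ± 0.08) and the protease gene S1P (-0.28 ± 0.08). Splicing of BZIP60 cannot be read from counts per gene.

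ER-associated degradation removes proteins that fail to fold. The interaction was called higher for 7 of 11 tested genes and lower for 0, with a median of 1.62. HRD1B, a membrane ubiquitin ligase, had 189, 205, 192 and 187 CPM in the EXPA1 OE line after Dex and 15.7, 16.1, 16.9 and 16.7 CPM without Dex, against 14.4, 16.8, 15.4 and 14.8 CPM in WT after Dex and 16.2, 16.2, 19.3 and 18.3 CPM without Dex. The induced line did not overlap any other group, and its replicates spanned 187 to 205 CPM. The interaction was 3.75 (standard error 0.09, adjusted p = 2.31e-13), while the paralog HRD1A was at 0.06 ± 0.11. The membrane components DER1 and DER2.1 had 2.61 ± 0.11 and 1.92 ± 0.15, the lectin OS9, which recognizes trimmed glycans, 2.47 ± 0.15, the adaptor HRD3A 1.85 ± 0.12, AT4G29960 1.62 ± 0.08 and the ubiquitin-conjugating enzyme UBC32 1.296 ± 0.11. DER2.2 (0.43 ± 0.12) and the mannosidase genes MNS4 (-0.22 ± 0.09) and MNS5 (-0.22 ± 0.14) were not called.

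In the list on translocation and glycosylation, 4 of 12 tested genes were called higher and 0 lower (median -0.01), all 4 being subunits of the SEC61 channel. AT1G29310, a SEC61 α subunit, had 358, 365, 335 and 296 CPM in the EXPA1 OE line after Dex and 29.1, 30.8, 27.1 and 27.8 CPM without Dex, against 28.1, 29.7, 28.9 and 29.7 CPM in WT after Dex and 29.3, 32.1, 29.8 and 29.1 CPM without Dex. The other 3 groups lay between 27.1 and 32.1 CPM and overlapped. Its interaction was 3.61 (standard error 0.09, adjusted p = 2.31e-13), against 1.43 ± 0.06 for the second α gene of the list, AT2G34250. The γ gene AT5G50460 was at 2.16 ± 0.11 and SEC61 BETA at 1.51 ± 0.10. A further β gene outside the list, AT3G60540, was among the 12 largest rises, at 30.7, 43.2, 29.8 and 25.0 CPM in the EXPA1 OE line after Dex and 0.539, 0.551, 0.568 and 0.479 CPM without Dex, against 0.893, 0.714, 0.769 and 0.582 CPM in WT after Dex and 0.549, 0.735, 0.990 and 0.681 CPM without Dex. It was below 1 CPM outside the induced line, and its interaction was 5.92 (standard error 0.30, adjusted p = 4.85e-10). The glycosylation genes of the list were not called, with STT3A at 0.38 ± 0.08, STT3B at -0.45 ± 0.08, DAD1 at -0.53 ± 0.10 and DGL1 at -0.57 ± 0.09.

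COPII coats carry cargo out of the ER, and 3 of 12 tested genes were called higher and 0 lower (median 0.27). SEC31A (AT1G18830), an outer coat subunit, stood at 111, 109, 80.0 and 67.1 CPM in the EXPA1 OE line after Dex and 1.29, 0.435, 0.831 and 0.548 CPM without Dex, against 0.461, 0.467, 0.790 and 0.200 CPM in WT after Dex and 1.19, 1.13, 0.440 and 1.36 CPM without Dex. It was also called lower with Dex in WT (-1.15 ± 0.43), at levels of at most 1.36 CPM that overlapped between the groups of WT. The interaction was 7.97 (standard error 0.53, adjusted p = 1.30e-08), while SEC31B, the abundant paralog, was at 0.47 ± 0.09. SARA1A, a small GTPase that starts the coat, had 25.3, 29.7, 19.5 and 15.7 CPM in the EXPA1 OE line after Dex and 1.18, 0.319, 0.940 and 0.513 CPM without Dex, against 0.259, 0.494, 0.278 and 0.546 CPM in WT after Dex and 1.05, 0.878, 0.569 and 0.630 CPM without Dex. The lowest induced library stood at 15.7 CPM and the highest library elsewhere at 1.18 CPM, and the interaction was 5.83 (standard error 0.49, adjusted p = 2.34e-07). A second GTPase gene, SAR1B, was at 1.5 ± 0.10, and SAR2 at -0.34 ± 0.09. Among p24 cargo receptors, listed only once the data had been seen, 3 of 9 tested genes were called higher and 0 lower (median 0.63), p24delta5 at 2.06 ± 0.11, p24beta2 at 1.08 ± 0.09 and AT2G03290. AT2G03290 had 3 counts or fewer in 2 groups, so no fold is given, and leaving out any 1 of 9 libraries ended its call (adjusted p from 0.0502 to 0.773).

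The ER stress response element (ERSE) is a promoter sequence that UPR factors bind together with NF-Y, and it was searched as CCAAT, 10 bases of any letter and CACG on both strands of the 250 bases before each gene's start in the RefSeq annotation of TAIR10.1. It was found in 189 of 27443 promoters (0.689%) and in 175 of 20254 promoters of tested genes (0.864%). Among the ER lists it was found in 9 of 29 genes of ER folding (31%), in 2 of 11 of ER-associated degradation, in 1 of 13 UPR regulators (7.69%) and in 0 of 13 and 0 of 12 in the lists on translocation and on the COPII coat. Over these lists together it stood in 10 of 41 genes whose interaction was called higher (24.4%) and in 2 of 35 tested genes without that call (5.71%), CRT1 and UGGT. The related ERSE-II, searched as ATTGG, any base and CCACG on both strands, was in 17 of all promoters (0.0619%) and in none of the ER lists, and neither motif was in the promoters of the root hair or XTH lists. A match describes letters in this window only.

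The windows below hold the match of 3 of the genes with the largest interactions among those with a site and of the 2 genes with a site and no call, so that they can be compared. Each is 30 bases on the strand of the gene, 5′ to 3′, with the match in capitals, which read CCAAT and CACG in one orientation and CGTG and ATTGG in the other.
BIP3, distal site: tgtcaCGTGTCTGCTTGTGATTGGgtactt
BIP3, proximal site: gcttaCGTGTCAAGAAGTGATTGGagagga
UTR3: ttaagCCAATGACACAGTTACACGtggaaa
HRD1B: atacaCGTGTCGTTATATCATTGGttgcgc
CRT1: tctggCGTGTATTTAACTAATTGGttaacg
UGGT: ttcaaCCAATCAGTGGCGCCCACGtcatac
The windows of BIP3 lie on the minus strand at chr1:2932000-2932029 and chr1:2931922-2931951, with matches 174 and 96 bases before the start. The window of UTR3 is at chr1:4913191-4913220 (minus strand, 48 bases before the start) and that of HRD1B at chr1:24163679-24163708 (minus strand, 34 bases). Those of CRT1 and UGGT are at chr1:21092753-21092782 (minus strand, 68 bases) and chr1:26841517-26841546 (plus strand, 28 bases). BIP3 and P58IPK were the genes of these lists with a pair of sites, with interactions of 8.63 and 2.17. CRT1 (0.82) and UGGT (0.82) carry a full match, and no match was in the windows of TIN1 (8.16) and ERDJ3A (6.82).

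Expansins changed in both directions. Of 24 tested genes the interaction was called higher for 7, EXPA1 included, and lower for 5, with a median of 0.00. EXPA2, known from germinating seeds, had the largest value, at 3.24, 3.99, 3.40 and 2.92 CPM in the EXPA1 OE line after Dex and 0.195, 0.203, 0.153 and 0.137 CPM without Dex, against 0.317, 0.412, 0.726 and 0.418 CPM in WT after Dex and 2.23, 0.0896, 2.33 and 1.08 CPM without Dex. The WT libraries without Dex ranged from 0.0896 to 2.33 CPM, so that 1 of them lay below the line without Dex. The interaction was 5.88 (standard error 0.83, adjusted p = 5.09e-05). EXPA7 and EXPA18, expansins of root hairs, had 3.20 ± 0.44 and 3.002 ± 0.73, EXPA17, of lateral root tissue, 3.16 ± 0.52, and the expansin-like genes EXLA2 and EXLA3 1.70 ± 0.30 and 1.72 ± 0.56. In the other direction, EXPB3, a β-expansin, stood at 6.56, 4.39, 3.53 and 4.67 CPM in the EXPA1 OE line after Dex and 75.5, 69.2, 62.4 and 59.5 CPM without Dex, against 16.8, 20.3, 19.1 and 16.1 CPM in WT after Dex and 104, 95.4, 59.6 and 71.8 CPM without Dex. It was lower with Dex in both genotypes, and more so in the line, where all libraries after Dex were below those of WT after Dex. Its interaction was -1.61 (standard error 0.25, adjusted p = 0.000133). The others called lower were EXPA14 (-1.53 ± 0.39), EXLB1 (-1.42 ± 0.29), EXPA15 (-1.17 ± 0.35) and EXPA6 (-1.09 ± 0.18). The call of EXPA6 was lost at -0.99 without replicate 3 of the line after Dex, and just short of the fold threshold without replicate 2 of WT without Dex. EXPA10, an abundant expansin of shoots, was at -0.07 ± 0.14. EXLA3 (0.51) and EXPA15 (-0.72) had no call with WT without Dex reduced to replicates 1 and 2, nor EXLA3 without replicate 4 of that group (adjusted p = 0.0576). With at least 10 counts required in every library, 4 members were called higher.

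XTH enzymes cut and rejoin xyloglucan, a polymer between cellulose microfibrils, and of 28 tested genes 13 were called higher and 1 lower (median 0.54). XTH15 stood at 188, 180.4, 204 and 199 CPM in the EXPA1 OE line after Dex and 4.89, 5.86, 5.03 and 6.67 CPM without Dex, against 11.8, 11.2, 12.5 and 12.2 CPM in WT after Dex and 2.15, 3.44, 9.06 and 7.97 CPM without Dex. In WT it rose too (1.08 ± 0.30), and replicates 3 and 4 without Dex lay above replicates 1 and 2. The interaction was 4.03 (standard error 0.42, adjusted p = 2.37e-06). XTH18, an XTH of roots and hypocotyls, had 42.6, 74.6, 109 and 91.5 CPM in the EXPA1 OE line after Dex and 13.1, 9.95, 11.3 and 7.84 CPM without Dex, against 13.3, 14.9, 19.7 and 16.1 CPM in WT after Dex and 6.29, 6.53, 17.37 and 19.9 CPM without Dex, with no overlap between the induced line and any other group. Its interaction was 2.56 (standard error 0.49, adjusted p = 0.000834), and its relatives XTH17, XTH19 and XTH20 had 1.13 ± 0.27, 1.27 ± 0.46 and 1.16 ± 0.34. For XTH20 the Dex effect was -0.05 ± 0.24 in the line and -1.21 ± 0.24 in WT. XTH23 was at 2.203 ± 0.40. XTH12, XTH13, XTH14 and XTH26, all 4 on the root hair list or known from root hairs, were at 4.29 ± 0.80, 4.05 ± 0.93, 1.92 ± 0.48 and 4.39 ± 1.15, with XTH12 at most 2.06 CPM in any library. XTH25 was called lower, at -2.22 ± 0.52, and XTH24 rose with Dex in both genotypes by 2.25 ± 0.23 in the line and 2.23 ± 0.23 in WT, an interaction of 0.02 ± 0.31. With WT without Dex reduced to replicates 1 and 2, 8 members were called higher and 3 lower, and XTH17, XTH19 and XTH20 were at 0.95, 0.16 and 0.83, without a call. The call of XTH19 also ended when any 1 of 12 libraries was left out (adjusted p from 0.0525 to 0.0976), and that of XTH20 without replicate 4 of WT without Dex, at 0.99.

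Pectin methylesterases (PMEs), which strip methyl groups from pectin, had 4 genes called higher and 5 lower of 23 (median 0.08), against 7.16% and 5% of all tested genes. AT2G47550 had 2.42, 4.07, 5.88 and 4.72 CPM in the EXPA1 OE line after Dex and 0.150, 0.145, 0.0656 and 0.0513 CPM without Dex, against 1.35, 0.961, 1.302 and 1.55 CPM in WT after Dex and 0.148, 0.197, 0.440 and 0.167 CPM without Dex, a rise in both genotypes with an interaction of 2.88 (standard error 0.56, adjusted p = 0.000931). The line after Dex overlapped no other group. PME5 was measured at 27.3, 24.3, 26.9 and 30.4 CPM in the EXPA1 OE line after Dex and 48.6, 55.4, 58.1 and 56.4 CPM without Dex, against 56.9, 51.0, 56.2 and 53.0 CPM in WT after Dex and 42.2, 46.4, 26.7 and 25.4 CPM without Dex. The line after Dex was below WT after Dex without overlap, and it overlapped replicates 3 and 4 of WT without Dex, which lay below replicates 1 and 2. The interaction of PME5 was -1.63 (standard error 0.22, adjusted p = 2.82e-05). AT5G04960 (3.77 ± 0.56), RHS12 (2.65 ± 0.65) and PME41 (1.18 ± 0.34) were also called higher, and AT3G43270 (-1.23 ± 0.16), PME44 (-1.31 ± 0.24), PME35 (-1.94 ± 0.64) and PME3, given further on, lower. Without replicate 4 of WT after Dex 7 members were called higher, and PME35 was not called without its replicate 2 (adjusted p = 0.0505). Cellulose synthase and related CSL genes had 3 called higher and 6 lower of 26 (median 0.05), with CSLB1 (2.26 ± 0.70), CSLA11 (1.66 ± 0.20) and CSLC12 (1.54 ± 0.18) higher and CSLB6 (-1.92 ± 0.47), CSLG3 (-1.57 ± 0.36), CSLD5 (-1.53 ± 0.18), CSLE1 (-1.11 ± 0.20), CSLB3 (-1.03 ± 0.26) and CSLB4 (-1.01 ± 0.22) lower. The catalytic subunits of the primary CW, CESA1, CESA3 and CESA6, had -0.55 ± 0.12, -0.00 ± 0.14 and 0.24 ± 0.10, none called. With WT without Dex reduced to replicates 1 and 2 the CESA and CSL count of lower calls was 3. The calls of CSLB4 and CSLB3 were lost without any 1 of 9 and any 1 of 7 libraries, at -0.99 to -0.88 and at -0.98 to -0.88. That of CSLB1 was lost on the reduced set (adjusted p = 0.0535). That of CSLE1 was lost without replicate 1 of the line after Dex, at -0.97, and on the reduced set, at -0.997.

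Root hair genes had the largest list median. The interaction was called higher for 27 of 29 tested genes and lower for 0, with a median of 3.20, and all 29 values were above 0. It was made of both sides: the Dex effect had a median of 2.27 in the line, against -0.76 in WT, and the median difference of the line minus WT was 1.07 after Dex (9 members called higher, against 4.14% of all tested genes) and -2.05 without Dex (21 called lower, against 3.64%). The levels were low. Summed over the list they ran from 57.3 to 75.4 CPM in the line after Dex and from 10.8 to 25.5 CPM without Dex, against 22.9 to 47.8 CPM in WT after Dex and 32.7 to 74.8 CPM without Dex. The induced line and WT without Dex thus overlapped in their summed level. In bulk shoots, fewer cells of a type and less RNA per cell cannot be told apart.

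RHD2, the NADPH oxidase of root hair tips, stood at 5.15, 6.13, 15.0 and 11.5 CPM in the EXPA1 OE line after Dex and 1.77, 1.45, 1.03 and 0.736 CPM without Dex, against 1.498, 1.32, 1.96 and 1.75 CPM in WT after Dex and 1.90, 2.46, 1.89 and 2.58 CPM without Dex. The induced line was above all other libraries, and the line without Dex overlapped WT after Dex but not WT without Dex. The interaction was 3.35 (standard error 0.46, adjusted p = 3.71e-05). PRP3, a CW protein of root hairs, had 4.57, 2.88, 3.91 and 3.90 CPM in the EXPA1 OE line after Dex and 1.24, 0.580, 0.197 and 0.342 CPM without Dex, against 2.56, 1.32, 1.22 and 3.60 CPM in WT after Dex and 2.74, 5.38, 6.93 and 5.55 CPM without Dex. After Dex the line and WT overlapped, and the main gap was between the line without Dex and WT without Dex, which did not overlap. The interaction was 3.86 (standard error 0.61, adjusted p = 0.000159). RHS18 was at most 0.937 CPM in any library with an interaction of 4.98 (standard error 0.65, adjusted p = 2.34e-05), and the factors RHD6 and RSL4, which start and drive hair growth, had 2.15 ± 0.35 and 1.62 ± 0.50. COW1 (0.75 ± 0.23) and RHS15 (2.09 ± 1.17) were the members without a call. Among the defining markers RHD2, RSL4, RHD6, LRX1, COW1 and PRP3, none was at 0 as a group mean. A list of 6 genes of other root tissue had a mean log2 CPM of 0.23 to 0.88 in the line after Dex and -0.60 to -0.04 without Dex, against 0.03 to 0.43 and -0.02 to 0.53 in WT. It rose with Dex in the line, as the root hair genes did, while its WT groups overlapped. The interaction was called higher for 2 of the 6, IRT1 and CASP2, and lower for 0. CASP2 was not called when any 1 of 9 libraries was left out (adjusted p from 0.0526 to 0.0703). The part of this list in the result was not tested. With at least 10 counts required in every library, 10 members could be tested and 9 were called higher, and with WT without Dex reduced to replicates 1 and 2 the count was 24 and RSL4 was at 1.14 (adjusted p = 0.102).

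**Figure D4:**
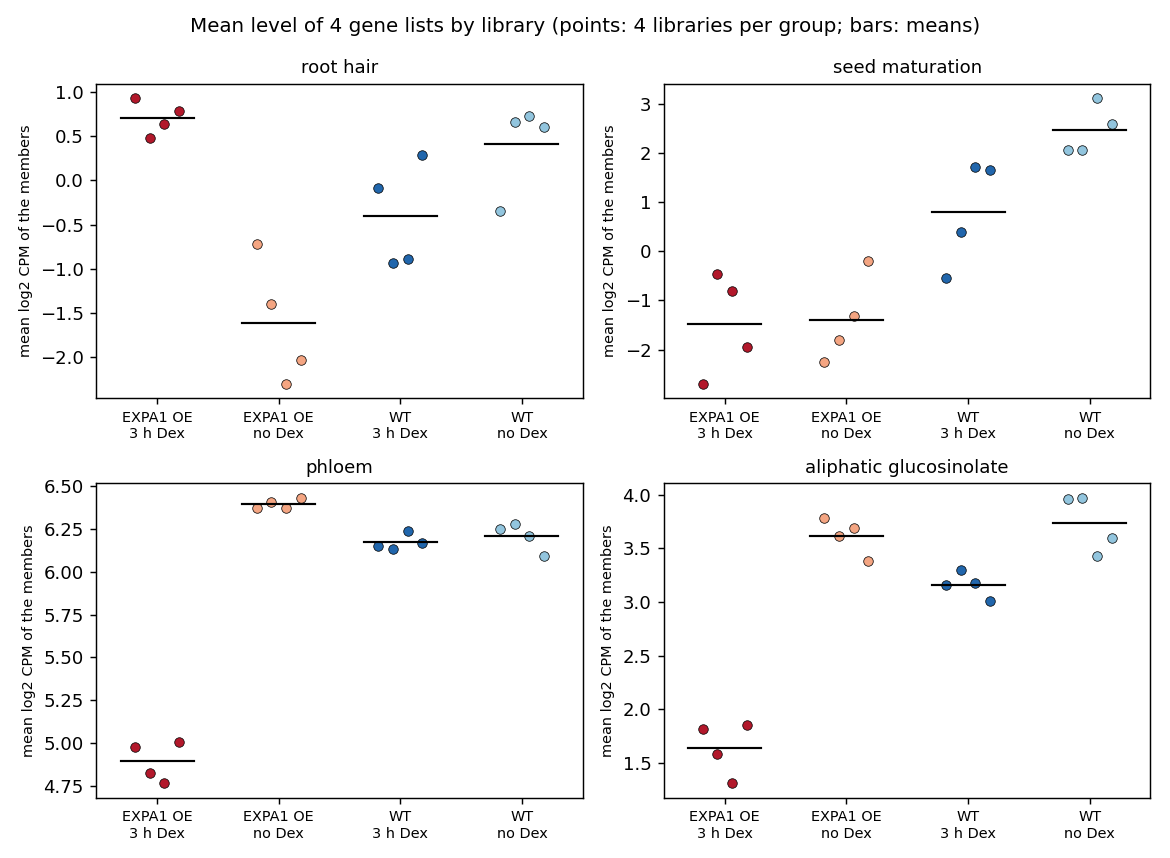
Mean log2 CPM over the members of 4 gene lists in each of 16 libraries, by group, with bars at the group means. Root hair genes are lowest on average in the EXPA1 OE line without Dex, seed maturation genes highest in WT without Dex, and phloem and aliphatic glucosinolate genes lowest in the line after Dex, without overlap with the other groups for these last 2 lists.

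Seed maturation genes differed between the genotypes before Dex. Of 16 tested genes, 15 were lower in the line than in WT after Dex, against 5.43% of all tested genes, and 15 without Dex, and the interaction was called higher for 4 and lower for 0 (median 1.28). The mean log2 CPM of the list was -2.69, -0.46, -0.81 and -1.95 in the EXPA1 OE line after Dex and -2.25, -1.81, -1.31 and -0.21 without Dex, against -0.54, 0.39, 1.71 and 1.64 in WT after Dex and 2.05, 2.06, 3.12 and 2.60 without Dex. All 4 libraries of WT without Dex were above every library of the line. OLEO2, an oil body protein, had 0.412, 2.08, 0.644 and 0.650 CPM in the EXPA1 OE line after Dex and 1.18, 1.33, 1.57 and 1.75 CPM without Dex, against 0.950, 1.76, 3.59 and 4.06 CPM in WT after Dex and 13.7, 8.41, 26.2 and 22.3 CPM without Dex. It fell with Dex in WT without overlap, and its levels in the line were at most 2.08 CPM in both groups. The interaction was 2.08 (standard error 0.69, adjusted p = 0.0263), and EM6 and PER1 had 1.76 ± 0.55 and 1.75 ± 0.66. OLEO2 was not called without replicate 2 of the line after Dex (adjusted p = 0.110) or of WT after Dex (0.0503), and PER1 not when any 1 of 10 libraries was left out (adjusted p from 0.0524 to 0.142). SESA1, the fourth member called, is given no fold, since 1 group held 3 counts or fewer. The number of higher calls was 7 without replicate 1 of the line after Dex, 2 without replicate 2 of the line after Dex or without replicate 2 of WT after Dex, and 1 with WT without Dex reduced to replicates 1 and 2.

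An interaction call without a call between the genotypes after Dex was common. The lack of a call there means that the thresholds were not passed, not that the genotypes were equal. The interaction equals the difference between the genotypes after Dex minus that without Dex, so these counts only describe its make-up. Over all tested genes the line was called above WT at 3 h for 4.14% and below for 5.43%, together 9.57%. Without Dex the shares were 0.308% and 3.64%. Of the 1511 higher interactions, 736 had the line above WT at 3 h, 754 had no call there and 21 had the line below WT. The line was below WT without Dex for 359 of the 754. Of the 1055 lower ones, 708 had the line below WT at 3 h and 347 had no call there, 32 of these with the line above WT without Dex. RD29B, a dehydration-responsive gene, stood at 4.35, 6.95, 3.52 and 5.45 CPM in the EXPA1 OE line after Dex and 12.2, 12.9, 12.7 and 14.3 CPM without Dex, against 2.39, 4.203, 7.45 and 5.60 CPM in WT after Dex and 50.6, 27.4, 72.2 and 89.7 CPM without Dex. After Dex the genotypes overlapped (0.02 ± 0.35), whereas without Dex the line was lower in every library (-2.21 ± 0.32). The interaction was 2.23 (standard error 0.47, adjusted p = 0.00166). Conversely, 554 genes differed between the genotypes at 3 h without an interaction call, 416 of them lower in the line, and 98 of the 554 had an interaction under 0.5 in size. EM1, a late embryogenesis gene, stood at 0.0937, 0.240, 0.132 and 0.124 CPM in the EXPA1 OE line after Dex and 0.434, 0.754, 1.79 and 2.69 CPM without Dex, against 0.576, 2.09, 5.49 and 3.18 CPM in WT after Dex and 19.6, 13.8, 31.6 and 30.03 CPM without Dex. The difference of the line minus WT was -4.30 ± 0.74 after Dex and -4.05 ± 0.54 without Dex, and the interaction was -0.25 ± 0.94, with a 95% interval of -2.26 to 1.75. AT4G14090, a glycosyltransferase gene, was of the same kind, with -1.72 ± 0.20 without Dex, -2.12 ± 0.25 after Dex and an interaction of -0.40 ± 0.32.

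Aliphatic glucosinolates are sulfur-containing defence compounds made from methionine, and their genes had 12 of 16 called lower and 0 higher by edgeR's test (median -1.48), with 14 lower and 1 higher at an unadjusted p under 0.05. DESeq2 called 1 higher, AOP3, a side chain enzyme gene that had 14, 22, 76 and 44 counts in the EXPA1 OE line after Dex and at most 2 in any other library. No fold is given for it, since 3 groups held 3 counts or fewer, and edgeR's test did not call it (adjusted p = 0.190). The list was added once the data had been seen. CYP79F1, which starts core synthesis, had 1.11, 0.919, 0.429 and 1.87 CPM in the EXPA1 OE line after Dex and 43.8, 30.9, 29.2 and 21.6 CPM without Dex, against 15.1, 23.0, 22.1 and 13.2 CPM in WT after Dex and 57.6, 59.5, 17.8 and 25.99 CPM without Dex. The induced line was at most 1.87 CPM and overlapped no other group, and WT without Dex was parted between replicates 1 and 2 and replicates 3 and 4. Its interaction was -3.71 (standard error 0.58, adjusted p = 0.000130). MAM1, a chain elongation enzyme, stood at 16.5, 13.7, 9.69 and 16.01 CPM in the EXPA1 OE line after Dex and 133, 129.6, 131 and 129.9 CPM without Dex, against 65.9, 71.5, 73.5 and 62.7 CPM in WT after Dex and 108, 116, 88.3 and 86.7 CPM without Dex. Libraries after Dex were below those without Dex in both genotypes, and the line after Dex was lowest. The interaction was -2.68 (standard error 0.19, adjusted p = 2.18e-08), with -0.54 ± 0.13 for the Dex effect in WT. The next steps CYP83A1 (-2.93 ± 0.23) and SOT18 (-1.48 ± 0.19), the side chain gene AOP2 (-2.99 ± 0.46) and the elongation genes BCAT4 (-2.02 ± 0.19) and IMD1 (-1.47 ± 0.15) were also called. So were the regulators MYB28 (-1.36 ± 0.23), MYB29 (-2.49 ± 0.42) and MYB76 (-1.82 ± 0.59). MYB76 was not called without replicate 3 or 4 of the line after Dex, replicate 3 of WT after Dex or with WT without Dex reduced to replicates 1 and 2 (adjusted p from 0.0546 to 0.0758). By contrast the parallel indole pathway and camalexin had 4 called higher and 1 lower of 12, against 7.16% and 5% of all tested genes. MYB122 (2.64 ± 0.80), CYP81F2 (1.80 ± 0.48) and PAD3 (3.73 ± 0.62) were higher and CYP79B3 (-1.45 ± 0.23) lower. CYP71A13, the fourth called higher, had 3 counts or fewer in 1 group and was not called without replicate 1 or replicate 4 of the line without Dex (adjusted p = 0.0507 and 0.0518). MYB122 was not called with WT without Dex reduced to replicates 1 and 2 (adjusted p = 0.0504).

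Of 7 phloem genes, 4 fell with Dex in the line (9.44% of all tested genes) and 0 were called in WT by edgeR's test, where 3 were higher and 2 lower at an unadjusted p under 0.05. The interaction was called lower for 4 of 7 tested genes and higher for 0 (median -1.18). SUC2, the sucrose transporter that loads the phloem, stood at 35.1, 32.1, 29.2 and 33.8 CPM in the EXPA1 OE line after Dex and 174, 188, 183 and 206 CPM without Dex, against 184, 164, 188 and 191 CPM in WT after Dex and 145, 159, 156 and 150.5 CPM without Dex. The line after Dex overlapped no other group, while WT after Dex was above WT without Dex by 0.25 ± 0.07. Its interaction was -2.78 (standard error 0.10, adjusted p = 6.93e-12). SWEET11, which releases sucrose next to the companion cells, had 38.6, 37.3, 36.6 and 45.1 CPM in the EXPA1 OE line after Dex and 185, 174, 172 and 175 CPM without Dex, against 183, 164, 190.2 and 189 CPM in WT after Dex and 165, 165, 156 and 143 CPM without Dex. The pattern was the same, with all libraries of the 3 other groups between 143 and 190.2 CPM. The interaction was -2.37 (standard error 0.10, adjusted p = 6.98e-11), and AHA3, a proton pump of companion cells, and SWEET12 had -2.40 ± 0.11 and -1.18 ± 0.12. APL (-0.35 ± 0.11), SEOR1 (-0.51 ± 0.10) and PP2-A1 (-0.63 ± 0.14), genes that mark phloem identity and sieve elements, were lower too but under the fold threshold. At an unadjusted p under 0.05 the interaction was lower for all 7 genes and higher for 0. The called members were the transporter and pump genes. The list mean was 4.77 to 5.01 log2 CPM in the line after Dex and 6.37 to 6.43 without Dex, against 6.13 to 6.23 in WT after Dex and 6.09 to 6.28 without Dex.

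Aquaporins of the plasma membrane and tonoplast had 11 of 18 called lower and 2 higher (median -1.08), a list likewise added later. TIP2, a tonoplast water channel, stood at 301, 282, 262 and 334 CPM in the EXPA1 OE line after Dex and 1223, 1238, 1214 and 1435 CPM without Dex, against 1205, 1051, 1263 and 1072 CPM in WT after Dex and 979, 1009.5, 1589 and 1425 CPM without Dex. The induced line was below the other groups, which overlapped. The interaction was -1.99 (standard error 0.19, adjusted p = 9.38e-07), and PIP2E (-1.57 ± 0.14), PIP2;8 (-1.52 ± 0.17) and GAMMA-TIP (-1.44 ± 0.14) were further examples. BETA-TIP, known from seeds, and TIP4;1 were called higher (4.28 ± 0.62 and 1.49 ± 0.46). Subtilases, secreted proteases, had 13 of 28 called lower and 1 higher (median -0.79), again a list added once the data had been seen. AT4G21650, with the largest fall of the named genes, had 0.899, 0.959, 1.14 and 1.13 CPM in the EXPA1 OE line after Dex and 16.2, 15.3, 17.1 and 16.3 CPM without Dex, against 14.2, 14.8, 13.7 and 12.4 CPM in WT after Dex and 10.4, 11.2, 5.85 and 6.14 CPM without Dex. All libraries of the induced line were at most 1.14 CPM, and WT without Dex was parted, with replicates 3 and 4 lowest. The interaction was -4.68 (standard error 0.26, adjusted p = 1.58e-09). AT2G39850 (-3.91 ± 0.34) followed it among subtilases, and AT5G58840 was the 1 called higher (2.66 ± 1.02), a call that depended on each of 12 libraries, with adjusted p-values of 0.0512 to 0.129 when 1 of them was left out. The calls of AT5G58840 and TIP4;1 were lost with WT without Dex reduced to replicates 1 and 2 (adjusted p = 0.153 and 0.0771). The abundant lipid transfer protein gene LTP6 was of the same kind, at 2.85, 3.79, 3.81 and 5.38 CPM in the EXPA1 OE line after Dex and 63.4, 62.0, 65.8 and 59.6 CPM without Dex, against 63.2, 63.4, 54.2 and 55.3 CPM in WT after Dex and 61.8, 64.5, 36.3 and 34.1 CPM without Dex, with an interaction of -4.24 (standard error 0.28, adjusted p = 1.57e-08).

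Growth-regulating factors, transcription factors of leaf growth and a list added once the data had been seen, had 4 of 9 called lower and 0 higher (median -0.81). These were GRF4 (-1.92 ± 0.25), GRF7 (-1.59 ± 0.53), GRF5 (-1.34 ± 0.19) and GRF6 (-1.24 ± 0.39). The count was 2 without replicate 4 of the line after Dex or without replicate 3 of the line without Dex, where GRF6 (adjusted p = 0.0512 and 0.0536) and GRF7 (0.0591 and 0.0557) were lost. GRF7 was also lost without replicate 3 of the line after Dex, replicate 2 of the line without Dex or replicate 4 of WT after Dex (adjusted p from 0.0576 to 0.0623). GRF6 was also lost with WT without Dex reduced to replicates 1 and 2 (adjusted p = 0.0637). Of 13 cell division genes, 2 were called lower and 0 higher, and 0 of the 13 values were above 0 (median -0.78), with CYCB2;4 at -1.05 ± 0.24 and CYCB2;1 at -1.01 ± 0.25. That count was 0 in the exon counts, with WT without Dex reduced to replicates 1 and 2, without replicate 3 or without replicate 4 of WT without Dex, 4 without its replicate 1 and 5 without its replicate 2. CYCB2;1 lost its call without any 1 of 8 libraries (-0.99 to -0.85) and under DESeq2 (-0.99), and CYCB2;4 without any 1 of 3 (-0.99 to -0.90). ER (ERECTA), a receptor kinase of organ growth and stomatal patterning, was the 1 gene of 11 in the stomatal lineage list with a call (12.2% over all tested genes), and 2 were called lower without replicate 1 of WT without Dex. It stood at 28.7, 24.1, 25.5 and 29.7 CPM in the EXPA1 OE line after Dex and 70.7, 71.9, 74.2 and 74.7 CPM without Dex, against 72.0, 70.6, 73.0 and 69.4 CPM in WT after Dex and 61.1, 59.8, 54.5 and 57.5 CPM without Dex. The line after Dex, at most 29.7 CPM, was below all other libraries, and the interaction was -1.73 (standard error 0.09, adjusted p = 4.37e-10). The lineage factors SPCH (0.15 ± 0.15), MUTE (0.11 ± 0.29) and FAMA (-0.58 ± 0.20) were not called. Of 20 nuclear photosynthesis genes 0 were called in either direction by edgeR's test or by DESeq2 (median -0.45, 2 values above 0). At an unadjusted p under 0.05, 12 were lower and 0 higher, and 3 were called lower with WT without Dex reduced to replicates 1 and 2.

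The largest single interactions outside the lists were of mixed kinds. AT5G04210, a gene for a CCCH zinc finger protein, stood at 10.08, 13.2, 12.4 and 10.7 CPM in the EXPA1 OE line after Dex and 0, 0.0290, 0.0219 and 0.0342 CPM without Dex, against 0.0864, 0, 0.0213 and 0.0910 CPM in WT after Dex and 0.0148, 0.0538, 0 and 0 CPM without Dex. It was almost undetected outside the induced line, and its interaction of 7.47 (standard error 1.57, adjusted p = 0.00163) was not called without replicate 2 of WT without Dex (adjusted p = 0.0759). AT4G21730, which the reference does not describe, had 48.8, 53.7, 34.9 and 32.5 CPM in the EXPA1 OE line after Dex and 0.658, 1.07, 0.656 and 1.03 CPM without Dex, against 0.432, 0.302, 0.491 and 0.364 CPM in WT after Dex and 0.386, 1.08, 0.880 and 1.08 CPM without Dex, with no overlap between the induced line and the rest. Its interaction was 6.75 (standard error 0.42, adjusted p = 6.84e-09), and that of the glycosyltransferase gene AT3G55700 was 5.996 ± 0.47. Among the falls, AT1G06100, a fatty acid desaturase gene, stood at 0.281, 0.180, 0.281 and 0.340 CPM in the EXPA1 OE line after Dex and 4.97, 5.28, 4.42 and 5.80 CPM without Dex, against 1.498, 2.28, 1.49 and 1.53 CPM in WT after Dex and 3.20, 2.78, 2.55 and 1.86 CPM without Dex. The induced line was lowest without overlap, and the interaction was -3.60 (standard error 0.29, adjusted p = 1.39e-07). AT3G16670, of the Ole e 1 allergen and extensin family, had -3.24 ± 0.28, the pectin lyase-like gene AT1G10640 -3.15 ± 0.30, the copper amine oxidase gene AT1G31690 -3.15 ± 0.71 and CYP707A4, an enzyme that inactivates abscisic acid, -3.61 ± 0.31. AT4G15670, a thioredoxin superfamily gene, had -2.98 ± 0.20, and is uncertain because near-identical copies lie beside it.

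Genes with a Dex effect called in WT and not called, or called the other way, in the line were the converse pattern. The interaction was called for 68 genes with opposite Dex effects and, as counted above, for 238 falls and 99 rises called in WT alone. ATC, a relative of the flowering regulator TFL1, stood at 6.58, 7.01, 7.48 and 7.95 CPM in the EXPA1 OE line after Dex and 2.14, 2.03, 1.95 and 1.88 CPM without Dex, against 1.07, 1.35, 0.747 and 1.16 CPM in WT after Dex and 3.20, 2.71, 3.28 and 4.03 CPM without Dex. It was higher with Dex in the line and lower with Dex in WT, without overlap of the libraries in either genotype. The interaction was 3.48 (standard error 0.21, adjusted p = 5.65e-09). BGLU18, a β-glucosidase of ER bodies, had 26.2, 24.03, 27.3 and 32.2 CPM in the EXPA1 OE line after Dex and 78.4, 73.5, 73.6 and 73.4 CPM without Dex, against 140.3, 138, 141 and 140.3 CPM in WT after Dex and 67.1, 74.6, 39.0 and 37.3 CPM without Dex. It fell in the line (-1.45 ± 0.18) and rose in WT (1.36 ± 0.17), with replicates 3 and 4 of WT without Dex below replicates 1 and 2. The interaction was -2.81 (standard error 0.25, adjusted p = 3.71e-07).

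AT1G21680 rose in WT alone, at 34.2, 40.7, 40.6 and 47.4 CPM in the EXPA1 OE line after Dex and 43.8, 45.6, 42.7 and 57.4 CPM without Dex, against 322, 232, 250.5 and 200.3 CPM in WT after Dex and 36.1, 39.1, 46.0 and 34.4 CPM without Dex. The 3 groups other than WT after Dex overlapped between 34.2 and 57.4 CPM, and the interaction was -2.91 (standard error 0.20, adjusted p = 2.29e-08). ERD9, a glutathione transferase gene, fell in WT, at 88.0, 126, 108 and 96.6 CPM in the EXPA1 OE line after Dex and 158, 142, 146 and 123 CPM without Dex, against 32.2, 38.6, 31.4 and 30.5 CPM in WT after Dex and 238, 224, 171 and 206 CPM without Dex. WT after Dex was the lowest group, without overlap, and the line after Dex overlapped the line without Dex (-0.44 ± 0.12, not called). The interaction was 2.22 (standard error 0.17, adjusted p = 7.88e-08). PME3, an abundant PME, stood at 107, 99.1, 110.0 and 128 CPM in the EXPA1 OE line after Dex and 83.9, 97.3, 85.6 and 99.6 CPM without Dex, against 238, 220.5, 211 and 274 CPM in WT after Dex and 66.2, 72.8, 84.4 and 71.9 CPM without Dex. It was called as a rise in WT (1.67 ± 0.10) and not in the line (0.28 ± 0.10), with an interaction of -1.40 (standard error 0.14, adjusted p = 1.34e-06).

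**Figure D5:**
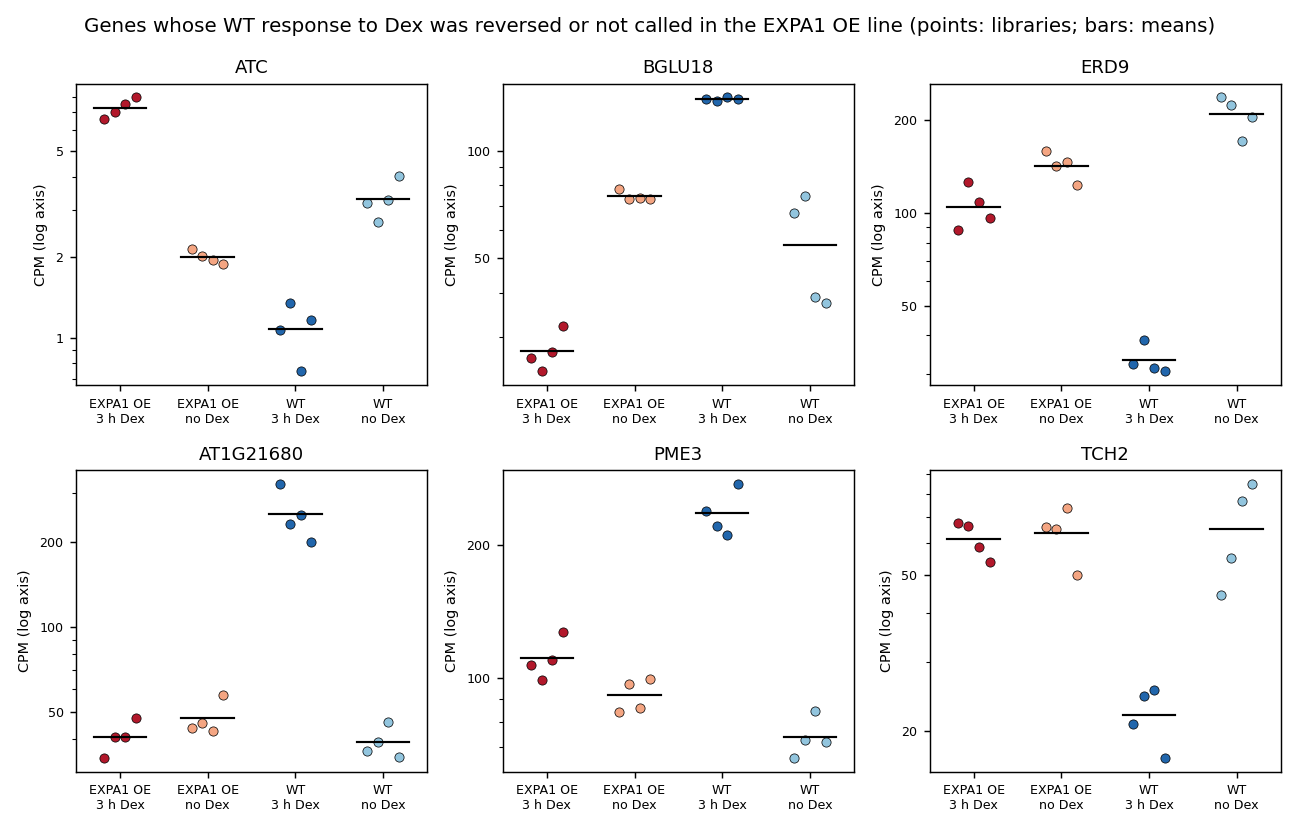
CPM (log axis) of 6 genes in each of 16 libraries, by group, with bars at the group means. ATC and BGLU18 moved in opposite directions in the 2 genotypes, and AT1G21680, ERD9, PME3 and TCH2 moved in WT while the EXPA1 OE line was not called.

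Stress lists gave smaller counts, some of which depended on the WT libraries without Dex. Of 20 touch and wound genes, 5 were called higher and 0 lower (median 0.72), against 7.16% and 5% of all tested genes. TCH2, a calmodulin-like gene, was at 67.5, 66.6, 58.9 and 53.8 CPM in the EXPA1 OE line after Dex and 65.9, 65.3, 74.0 and 50.0 CPM without Dex, against 20.9, 24.6, 25.5 and 17.1 CPM in WT after Dex and 44.3, 55.0, 76.9 and 84.9 CPM without Dex. It was lower in WT after Dex than in any other group, while the groups of the line overlapped, and the interaction was 1.52 (standard error 0.26, adjusted p = 0.000273). WRKY18 (3.04 ± 0.29), WRKY53 (1.87 ± 0.47) and TCH3 (1.05 ± 0.27) were also called. WRKY33 was at 108, 117, 117 and 82.6 CPM in the EXPA1 OE line after Dex and 18.98, 19.7, 32.6 and 9.58 CPM without Dex, against 27.99, 47.1, 46.6 and 19.3 CPM in WT after Dex and 9.999, 10.5, 67.3 and 62.4 CPM without Dex, and its replicates 3 and 4 in WT without Dex lay above every other library but those of the induced line. Its interaction was 2.49 (standard error 0.76, adjusted p = 0.0174) over all libraries and 0.63 (adjusted p = 0.322) with WT without Dex reduced to replicates 1 and 2, and the list then had 3 called higher and 4 lower. The call of TCH3 was also lost without replicate 4 of the line without Dex, replicate 4 of WT after Dex or replicate 3 or 4 of WT without Dex, at 0.91 to 0.99. Of 14 early auxin genes 4 were called higher and 0 lower (median 0.30), IAA19, IAA2 (1.496 ± 0.22), GH3.3 (1.096 ± 0.23) and IAA1 (1.04 ± 0.24). IAA19, an auxin-induced repressor, stood at 13.4, 14.1, 16.4 and 14.7 CPM in the EXPA1 OE line after Dex and 10.2, 11.1, 10.3 and 13.7 CPM without Dex, against 2.59, 2.72, 2.95 and 2.67 CPM in WT after Dex and 3.46, 4.52, 13.9 and 11.4 CPM without Dex, with 1.97 (standard error 0.45, adjusted p = 0.00284). It was 0.92 on the reduced set, where the list had 1 called higher and 3 lower. GH3.3 and IAA1 were under the fold threshold without any 1 of 2 and any 1 of 6 libraries, at 0.95 to 0.99 and at 0.92 to 0.998. Heat shock genes of cytosol and plastid had 4 called higher and 1 lower of 21 (median 0.55), and 12 were lower in the line than in WT without Dex, against 3.64% of all tested genes. The HSP70 gene AT3G09440 (1.58 ± 0.28), the small heat shock protein genes HSP17.6II (2.13 ± 0.61) and AT1G53540 (2.81 ± 1.002) and the factor HSFA2 (1.18 ± 0.37) were called higher, and DREB2A, a factor of drought and heat responses, lower (-1.37 ± 0.34). The count of higher calls was 2 on the reduced set. The call of AT1G53540 ended when any 1 of 8 libraries was left out (adjusted p from 0.0557 to 0.0742), and that of HSFA2 without replicate 3 of WT without Dex, at 0.97.

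A Dex effect called in the same direction in both genotypes, with no interaction call, was found for 968 genes, 394 rises and 574 falls. Flavonoid genes, which make anthocyanins and flavonols, were called lower with Dex for 9 of 10 in the line and 10 of 10 in WT, with medians of -2.77 and -2.71. Over all tested genes 9.44% were called lower with Dex in the line and 6.04% in WT. The list mean was 1.25 to 1.65 log2 CPM in the line after Dex and 3.48 to 3.88 without Dex, against 1.99 to 2.71 in WT after Dex and 4.52 to 5.56 without Dex. DFR, an anthocyanin enzyme, had -3.91 ± 0.25 in the line and -3.19 ± 0.22 in WT, an interaction of -0.72 ± 0.32. TT8 and MYB12, regulators of the pathway, were the members with an interaction call (2.48 ± 0.43 and 1.62 ± 0.56), that of MYB12 ending when any 1 of 7 libraries was left out (adjusted p from 0.0503 to 0.0674). The CBF and cold list was likewise called lower with Dex for 8 of 10 genes in the line and 7 of 10 in WT, with 1 interaction call, COR15A (-1.02 ± 0.35), which ended when any 1 of 8 libraries was left out (adjusted p from 0.0474 to 0.0706). Other responses in the same direction differed in size. PYL6, an abscisic acid receptor, stood at 49.4, 61.0, 82.1 and 80.9 CPM in the EXPA1 OE line after Dex and 2.62, 2.002, 1.95 and 2.16 CPM without Dex, against 20.3, 17.1, 19.2 and 21.7 CPM in WT after Dex and 2.05, 2.51, 3.61 and 2.57 CPM without Dex. It was higher with Dex in both genotypes, and more so in the line, with an interaction of 2.08 (standard error 0.25, adjusted p = 1.17e-05). GSTU7, a glutathione transferase, rose less in the line, at 44.6, 71.5, 61.3 and 63.6 CPM in the EXPA1 OE line after Dex and 15.4, 15.2, 14.6 and 14.5 CPM without Dex, against 195, 171, 197 and 120.1 CPM in WT after Dex and 16.3, 15.96, 24.9 and 20.4 CPM without Dex, with an interaction of -1.13 (standard error 0.24, adjusted p = 0.00166), and of -0.98 without replicate 1 of the line after Dex.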

How the data were processed

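Shoots were measured by RNA-seq. After trimming (Trimmomatic) and alignment to TAIR10, annotation release 31 (STAR 2.7.3a), the authors deposited expected counts per gene estimated with RSEM and exon counts from featureCounts, other versions not given in the sources used here. Libraries were polyA-selected and stranded with molecular identifiers, and whether duplicates were removed before counting is not stated. Samples were grouped by title, because genotype and treatment are exchanged in the other label fields.

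Expected counts were rounded (3.81% of the values were not whole) and tested with edgeR 4.0.16 in R 4.3.3: filter by expression, TMM scaling, quasi-likelihood F test on 4 group means, and Benjamini-Hochberg adjustment over 21090 genes. Standard errors were derived from F, as the absolute log2 value over its square root. Log2 CPM used a prior count of 2. DESeq2 1.42.0 and other scalings, filters and thresholds, the exon counts, a block for the replicate number and each library left out in turn were alternatives. Tables and figures used Python 3.11.15 with pandas 2.3.3, numpy 2.4.6 and matplotlib 3.10.9. The test was also run on simulated counts with differences set only in the line after Dex. Those counts held no difference between the genotypes without Dex and no parting of the WT libraries, so the run does not bear on either.

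Within groups, each of 24 replicate pairs differed beyond sampling noise (chi-square divided by its degrees of freedom 4.32 to 415). Each group held 4 biological replicates as labelled, and p-values measure the spread between them only. Total counts per library limit precision least for abundant genes, and the 34233834 counts of the smallest library leave genes under 1 CPM the least precise. The comparison, the 28 gene lists and the 5 lists added after the data were seen were chosen with earlier results of these data known, and lists are described by counts and medians without a set test. Genes were named by a rule: EXPA1, the 12 largest calls in each direction above a mean of 1 CPM, up to 6 called members per list and up to 6 genes per response pattern. Further members of lists are named for their role, a choice made with their values in view. The 8 libraries after 7 days of Dex entered only 1 alternative. Names, products and promoters came from RefSeq (TAIR10.1), where 32835 genes matched.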

Additional observations from a re-analysis of the deposited data

Results flagged for a closer look

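The Dex effect differed between the EXPA1 OE line and WT at 2566 genes by the interaction test of edgeR, and 68 of them had Dex effects called in opposite directions in the genotypes. BGLU18 and ATC, described above, are examples.

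A library far from the other 3 of its group was looked for in 264 groups of 4 values and found in 11, where chance alone would give about 1 in 20. In the EXPA1 OE line after Dex, replicate 2 had the lowest share of EXPA1 (1.69% of counts) and the highest share of the 10 most abundant genes (21.5%). It also had the highest share of the plastid rRNA genes ATCG00950 and ATCG01180 (6.402%). Replicate 1 of the same group stood apart in the mean of the expansin list (3.00 log2 CPM).

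In the EXPA1 OE line without Dex, replicate 4 stood apart in the share of the 10 most abundant genes (10.5%), in the list on ABA and drought (3.99 log2 CPM), in BZIP60 (19.2 CPM, below the other 3) and in TIP2 (1435 CPM, above the other 3), and replicate 1 in BGLU18 (78.4 CPM, above the other 3). In WT, replicate 3 after Dex stood apart in the list on ER translocation and glycosylation (5.55 log2 CPM) and replicate 1 without Dex in the root hair list (-0.34 log2 CPM, below the other 3). Without replicate 2 of the line after Dex the interaction was called higher for 1450 genes and lower for 1037, of which 1391 and 977 were among those called with all libraries.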

How the results depend on the processing

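Of 197 called genes that were followed under 28 alternatives, 113 kept their call in every one that tested them, 84 lost it in at least 1, and 0 changed direction. Some genes with low counts, EXPA2 and XTH12 among them, were tested in only 27 of the 28. The counts over all genes are given as higher and then lower. With no fold threshold they were 3704 and 4406 for the interaction, 6486 and 6778 for Dex in the EXPA1 OE line, 4536 and 4591 for Dex in WT, 4708 and 5470 for the line against WT after Dex, and 1557 and 2160 without Dex. Tested against a difference of 1 on the log2 scale they were 463 and 267, 1095 and 1120, 291 and 475, 340 and 425, and 2 and 143, in the same order. With at least 10 counts in every library, 826 genes were lower with Dex in WT, 558 higher in the line than WT after Dex, and 34 higher and 379 lower without Dex. With all 24 libraries in 1 fit 31 genes, and with WT without Dex reduced to replicates 1 and 2 (chosen after the data were seen) 272 genes, were higher in the line without Dex. Leaving out each library in turn gave 1365 to 1626 and 904 to 1091 for the interaction, 1868 to 2083 and 1852 to 2018 for Dex in the line, 753 to 867 and 1137 to 1331 for Dex in WT, 811 to 972 and 1038 to 1185 for the line against WT after Dex, and 47 to 86 and 560 to 846 without Dex. DESeq2 gave 1712 and 1021 for the interaction and the exon counts 1578 and 952.

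The labels give no pairing of same-numbered libraries, so the numbers were not taken as pairs. Deviations of same-numbered libraries from the group means correlated from -0.08 to 0.12 over 24 pairs. Among libraries of the other groups, 8 of 16 libraries were closest to one of their own number. The count that chance would give was not worked out, so these values do not settle whether the numbers mark pairs. A fit with the replicate number as a block gave 1468 higher and 1060 lower interactions, of which 1434 and 1034 were among the first. The counts of ER folding, ER-associated degradation, UPR, translocation and phloem genes were the same under every alternative that kept the fold threshold. With at least 10 counts in every library, 10 of 29 root hair genes and 5 of 16 seed maturation genes could be tested. The cause of these changes was not tested.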

Other observations

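Several lists not described above are given as values. Tau glutathione transferases, which conjugate glutathione to reactive compounds, had an interaction called higher for 5 of 15 tested genes and lower for 3, with GSTU25 (3.09 ± 0.79), GSTU9 (2.64 ± 0.41) and GSTU22 (2.22 ± 0.40) among the higher and GSTU20 (-1.50 ± 0.15) and GSTU2 (-1.82 ± 0.43) among the lower. GSTU9, GSTU22 and GSTU25 had Dex effects of 1.08 ± 0.29, 0.49 ± 0.28 and 1.44 ± 0.60 in the EXPA1 OE line, against -1.57 ± 0.29, -1.73 ± 0.28 and -1.65 ± 0.52 in WT. ABA and drought genes had 3 of 22 called higher and 1 lower (median 0.38), against 7.16% and 5% of all tested genes. They were RD29B and PYL6, given above, with RD20 (1.305 ± 0.30), and RD22 (-1.06 ± 0.14), the last not called without replicate 3 of the line after Dex (-0.95). Without replicate 1 of WT without Dex 7 were called higher. Evening genes of the circadian clock were called higher with Dex for 4 of 9 in the line and 3 of 9 in WT, and 0 were called lower. Morning genes were called higher for 2 of 8 in each genotype and lower for 0. The shares over all tested genes were 9.21% higher in the line and 3.74% in WT. The interaction was called higher for 1 evening gene, ELF4 (1.79), and lower for 0. Among morning genes it was called lower for 1, RVE1 (-1.24), and higher for 0, against the same 7.16% and 5%. A part of the hour of harvest in the Dex effects was not tested.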
